A study of Mus musculus with 23 samples.

Results

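The 9 genes described here belong to the TREM2 and TYROBP signalling route and were followed in all 23 libraries: Trem2, Tyrobp, Syk, Plcg2, Inpp5d, Hcst, Trem1, Trem3 and Treml2. They were chosen by gene symbol and are 9 of the 53090 genes in each deposited table. All 9 passed the filter on low counts that left 18720 genes for testing. Poly(A) RNA was sequenced from brain microglia, the resident macrophages of the brain, of female C57BL/6 mice. Groups were young (7 libraries), young repopulated (3), old (5) and old repopulated (8). Repopulated mice had received the CSF1R inhibitor PLX5622, which depletes microglia, at 1200 ppm in AIN-76A chow, and control mice ate that chow without the drug. The labels give neither the ages nor the times on the diet and after it, and the label protocols mention both cultured CD11b-selected cells and sorted cells. No transgene or genetic change is listed for any group.

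TREM2 is a receptor for lipids, lipoproteins and cell debris that microglia carry on their surface. It has no signalling motif of its own and works through TYROBP (DAP12), a membrane adaptor whose phosphorylated tyrosines recruit the kinase SYK; SYK in turn activates PLCG2, which splits a membrane phospholipid to release calcium, while INPP5D (SHIP1) removes a phosphate from the lipid product of PI3-kinase and dampens the signal. HCST (DAP10) is a sister adaptor that recruits PI3-kinase. TREM1 and TREM3 are activating receptors of monocytes, neutrophils and macrophages that also pair with TYROBP, and TREML2 is a related receptor encoded beside them.

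Several of these genes lie close together in the mouse genome (GRCm38, GENCODE M21). Trem1 spans chr17:48232768-48246924 and Trem3 chr17:48247777-48258841, both on the plus strand and 852 bases apart, and Trem2 lies 87559 bases further on at chr17:48346401-48354147, also on the plus strand. Tyrobp (chr7:30413760-30417585, plus strand) and Hcst (chr7:30417712-30419854, minus strand) end 126 bases from each other. Syk lies at chr13:52583173-52648792, Plcg2 at chr8:117498291-117635142 and Inpp5d at chr1:87620312-87720507, all on the plus strand. Plcg2 overlaps the gene model Gm27361 and Trem1 overlaps AC241601.2. Whether the authors' counting used the strand is not given in the sources used here, so reads from such overlaps cannot be assigned to one gene.

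The 250 bases before the start are shown for Trem2 and Inpp5d, which were low in the same old repopulated libraries, and for Trem1, which was high in them. Sequences are from RefSeq (GRCm38.p6), plus strand, 5′ to 3′, at chr17:48346151-48346400, chr1:87620062-87620311 and chr17:48232489-48232738 in that order, with any match to GAGGAAG, the core bound by the myeloid transcription factor PU.1, or to its reverse complement CTTCCTC, in capitals.
Trem2: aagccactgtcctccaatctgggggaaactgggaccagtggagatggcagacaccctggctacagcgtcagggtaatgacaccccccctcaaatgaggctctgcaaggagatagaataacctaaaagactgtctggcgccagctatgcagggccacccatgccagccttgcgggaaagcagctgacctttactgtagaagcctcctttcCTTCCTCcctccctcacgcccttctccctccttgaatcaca
Inpp5d: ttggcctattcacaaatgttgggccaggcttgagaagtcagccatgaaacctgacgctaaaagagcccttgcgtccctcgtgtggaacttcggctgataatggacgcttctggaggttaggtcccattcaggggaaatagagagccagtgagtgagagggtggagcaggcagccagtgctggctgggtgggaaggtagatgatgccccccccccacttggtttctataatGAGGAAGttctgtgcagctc
Trem1: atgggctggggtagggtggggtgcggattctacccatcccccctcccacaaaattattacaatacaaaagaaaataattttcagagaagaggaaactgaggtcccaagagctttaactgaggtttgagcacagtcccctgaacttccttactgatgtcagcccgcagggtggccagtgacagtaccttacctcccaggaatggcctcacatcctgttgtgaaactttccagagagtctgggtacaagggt
The Trem2 window held 1 match, on the minus strand, 41 bases before the start, and the Inpp5d window held 1, on the plus strand, 20 bases before the start. These letters occurred in neither orientation in the Trem1 window, nor in the windows of Hcst, Plcg2 and Syk, which are not shown. Of these, Hcst was also lower in old repopulated replicates 6 to 8 than in replicates 1 to 5. The windows shown were chosen by the levels of their genes, so they give no pattern of matches. These letters occurred in 3486 of the 32851 windows of this length in the table, or 10.6%, so a match is a description of the window and not a site of binding.

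The deposited tables held 43657297 to 58189402 expected counts per library, and no pair of libraries held identical values. All 12 microglial markers were detected in every library, with a summed level of 26791 to 32846 CPM (counts scaled to the size of the library) in young, 23878 to 27666 in young repopulated, 10752 to 27311 in old and 10141 to 30991 in old repopulated libraries. The sum over 9 monocyte markers was 49.5 to 362 CPM in young, 203 to 474 in young repopulated, 185 to 2784 in old and 126 to 3738 in old repopulated libraries. Young replicate 3 stood apart from the other young libraries, whose highest sum was 62.9. The submitters number the libraries 1 to 24, and the numbers pass through young, old and old repopulated from 1 to 11 and again from 12 to 24, where young repopulated follow at 22 to 24. What the numbers stand for is not stated. Numbers 1 to 11 hold 3 young, 2 old and 5 old repopulated libraries, and numbers 12 to 24 hold 4 young, 3 young repopulated, 3 old and 3 old repopulated.

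Transcript levels per length (TPM, also scaled to the library) put the adaptor first. Tyrobp had a mean level of 2565 ± 337 TPM (SD, n = 23 libraries), followed by Trem2 at 1205 ± 319 TPM, Inpp5d at 397 ± 65.5 TPM, Plcg2 at 108 ± 6.5 TPM and Syk at 87.7 ± 12 TPM. Tyrobp exceeded Trem2 in 23 of 23 libraries, by 1.49 to 3.99 times, and Trem2 exceeded Inpp5d in 23 of 23. Plcg2 and Syk were neighbours whose ranges overlapped, with Plcg2 higher in 21 of 23 libraries. Hcst (27.8 ± 7.86 TPM), Trem1 (26.2 ± 23.6 TPM) and Treml2 (24.0 ± 5.23 TPM) could not be ordered beyond their spread, since Hcst was above Trem1 in 15 libraries and Trem1 above Treml2 in 8. Trem3 was lowest at 2.68 ± 2.91 TPM. The receptors Trem1 and Trem3 varied most between libraries relative to their means, and Plcg2 least.

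**Figure D1:**
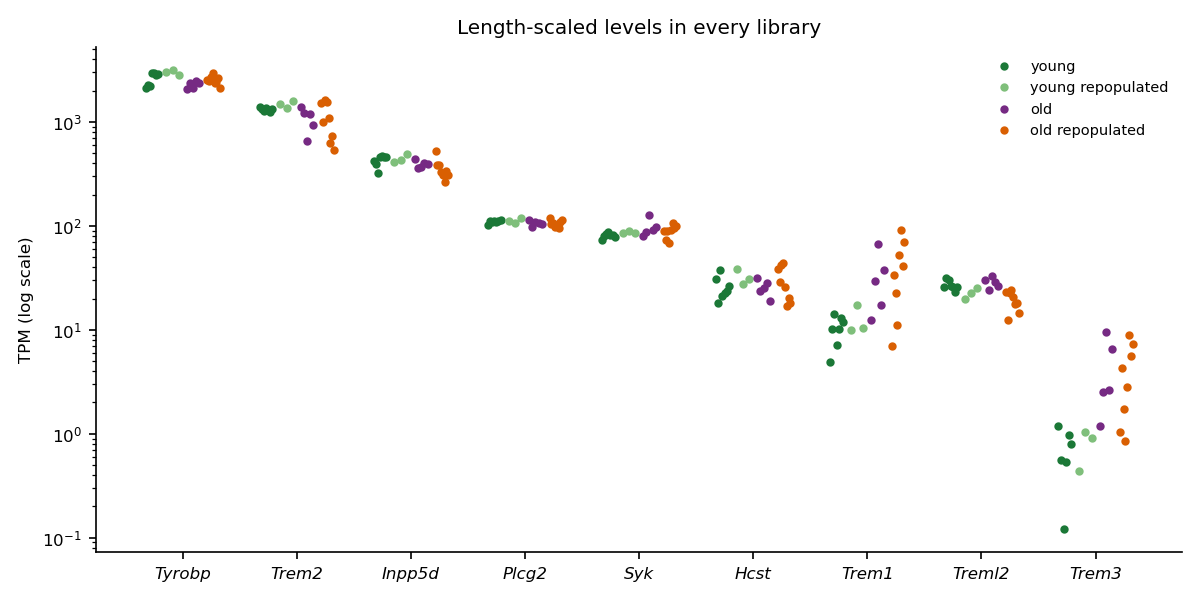
Level of each gene in TPM (log axis) in every library, coloured by group. Tyrobp, Trem2 and Inpp5d lie above the rest in every library, and Trem1 and Trem3 spread over the widest range; the 1 young library with Trem3 at 0 is not drawn.

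Of the 9 genes, 1 differed between old and young microglia (edgeR quasi-likelihood test, Benjamini-Hochberg adjusted p under 0.05 over all genes), where 2.83% of all genes tested did. No member passed in old repopulated against old, where 0.278% of all genes did, or in young repopulated against young, where 1.34% did. Between old repopulated and young, 3 of 9 passed, against 15.2% of all genes. At an unadjusted p under 0.05 the 9 genes counted 2, 2, 1 and 4 in these comparisons. DESeq2 called 2, 0, 0 and 4 of them, against 5.18%, 1.67%, 4.46% and 19.7% of all genes, and limma's voom with sample weights called 4, 1, 2 and 6, against 12.6%, 2.21%, 13.8% and 35.5%. Against young repopulated, old repopulated libraries had 0 members called by edgeR and 0% of all genes, with 3 members at an unadjusted p under 0.05, 0 by DESeq2 (0.491% of all genes) and 4 by voom (17%). The difference between the repopulation effects in old and in young mice gave 0 members and 0% of all genes by edgeR, with 0 members at an unadjusted p under 0.05, 0 by DESeq2 (0.246% of all genes) and 0 by voom (0.807%). The comparisons that include young share those libraries.

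**Figure D2:**
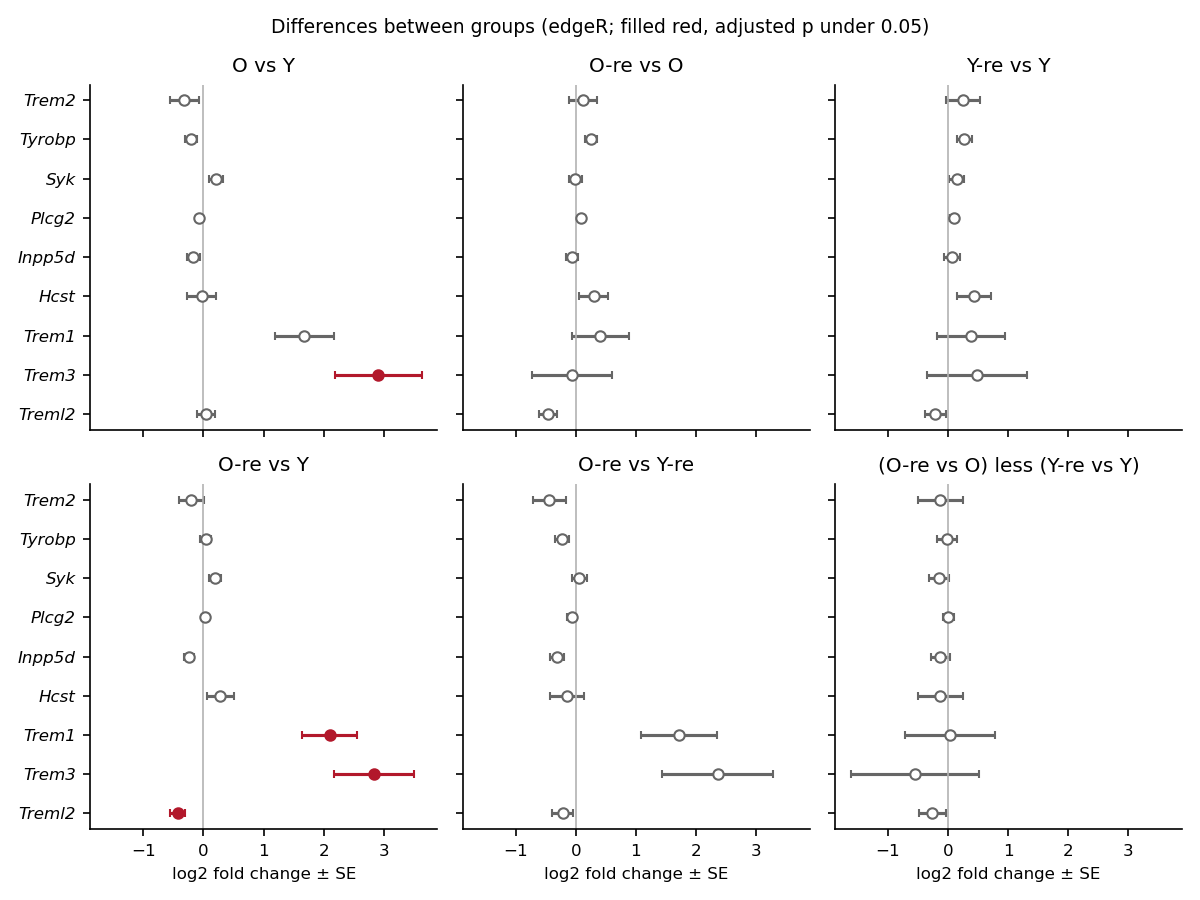
Log2 fold change of each gene in the comparisons between groups (x axis), with bars of 1 SE from edgeR and red filled points at adjusted p under 0.05. Red points are Trem3 in old against young, and Trem1, Trem3 and Treml2 in old repopulated against young.

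Trem2, the receptor, was even among young libraries and wide among old repopulated ones. It had 883, 826, 913, 848, 827, 770.1 and 828 CPM in young replicates 1 to 7 and 1014, 929.6 and 1051 CPM in young repopulated replicates 1 to 3. All 3 young repopulated libraries lay above all 7 young ones. Old replicates 1 to 5 had 867, 782, 421, 723 and 583 CPM, and old repopulated replicates 1 to 8 had 1004, 686, 1095, 1115, 741, 426, 471 and 333 CPM. Old repopulated libraries therefore held both the highest values of the series, in replicates 3 and 4, and the lowest, in replicate 8. The log2 fold change was -0.32 ± 0.24 (SE) in old against young (edgeR adjusted p = 0.588) and 0.25 ± 0.28 in young repopulated against young (edgeR adjusted p = 0.757). Old repopulated differed from old by 0.12 ± 0.23 (edgeR adjusted p = 0.938), a sign that turned to -0.01 without old replicate 3. In bulk RNA such as this, fewer cells of a type and less RNA per cell cannot be told apart.

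Over all libraries, Trem2 in old repopulated mice differed from young by -0.20 ± 0.21 (edgeR adjusted p = 0.574) and from young repopulated by -0.44 ± 0.27 (edgeR adjusted p = 0.501), and neither passed. The second difference passed by edgeR with the run of library numbers as a term, at -0.91 (adjusted p = 0.0352), and by voom, at -0.79 (adjusted p = 0.014), and the first passed by voom, at -0.48 (adjusted p = 0.0298). The lowest Trem2 values sat in library numbers 12 to 24. Among numbers 12 to 24, Trem2 averaged 818 ± 33.4 CPM (SD, n = 4) in young, 998 ± 62.4 (n = 3) in young repopulated, 576 ± 151 (n = 3) in old and 410.3 ± 70.3 (n = 3) in old repopulated libraries. Among numbers 1 to 11 it averaged 874 ± 44.1 (n = 3), 824 ± 60.0 (n = 2) and 928 ± 201 (n = 5) in young, old and old repopulated. All 3 old repopulated libraries with the higher numbers lay below every young and young repopulated library. So did old repopulated replicates 2 (686 CPM) and 5 (741 CPM), which have lower numbers. Within numbers 12 to 24 old repopulated fell by 0.99 ± 0.17 on the log2 scale against young (edgeR adjusted p = 0.000605) and by 1.30 ± 0.17 against young repopulated (edgeR adjusted p = 0.000534). Within numbers 1 to 11 the difference from young was 0.09 ± 0.18 (edgeR adjusted p = 0.904). The difference between the runs was -1.08 ± 0.24 (edgeR adjusted p = 0.0391), in a test that called 1.39% of all genes. That test was added after the data were seen. Summed microglial markers had a median of 10981 CPM in those 3 old repopulated libraries and 22762 CPM in the 5 with lower numbers, and monocyte markers 1843 and 302 CPM. The part of either in the difference was not tested.

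**Figure D3:**
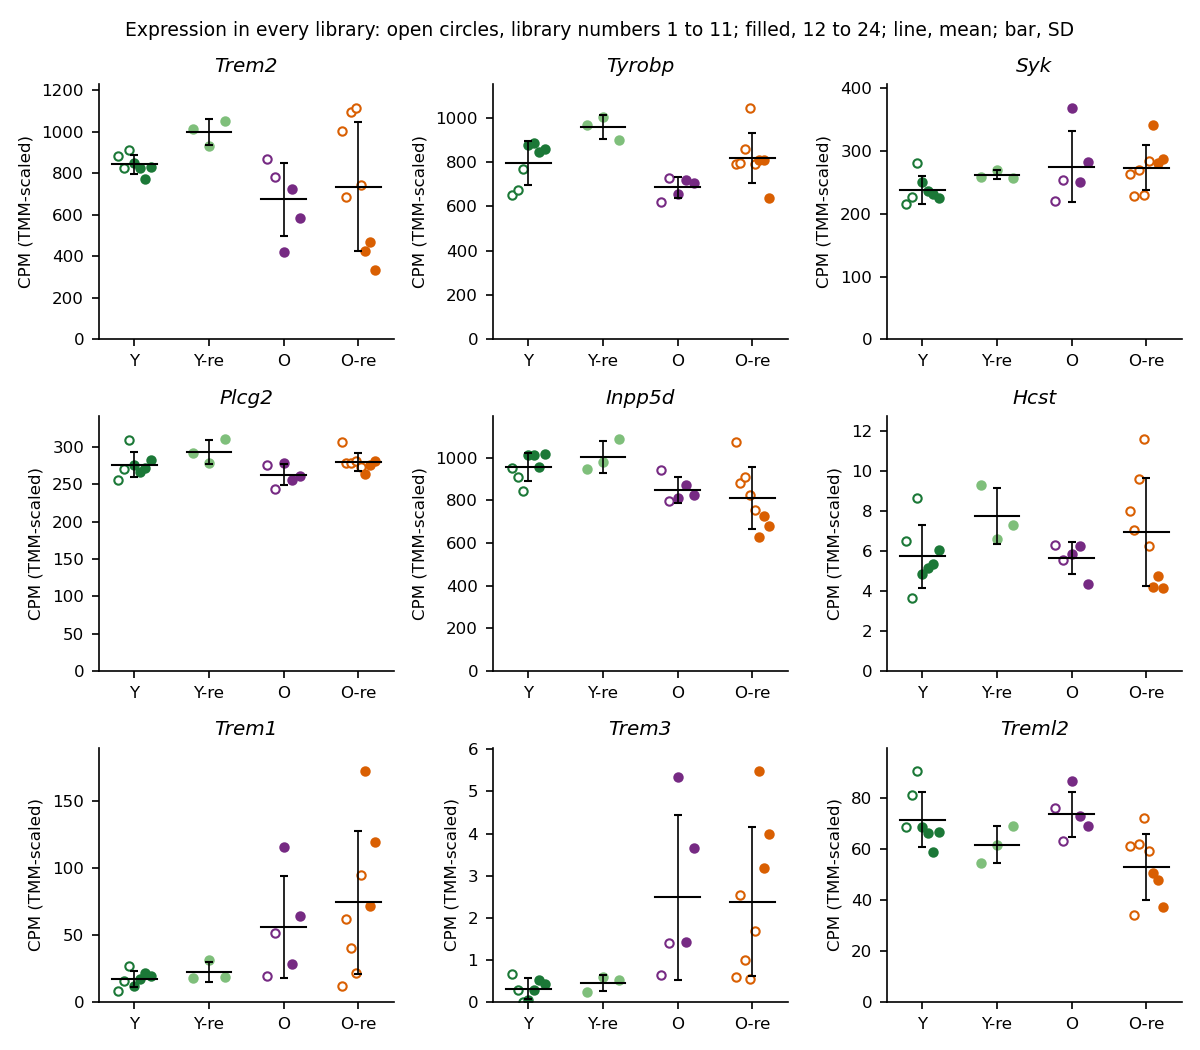
Level of each gene in CPM (y axis) in every library by group, with lines at the group means, bars of 1 SD, open circles for library numbers 1 to 11 and filled ones for 12 to 24. The old repopulated libraries with the higher numbers are among the lowest in Trem2 and Inpp5d, and old and old repopulated libraries reach the highest Trem1 and Trem3.

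Tyrobp, the adaptor of Trem2, Trem1 and Trem3, moved within a narrower span. It had 650.3, 673, 768, 876, 886, 845 and 860.3 CPM in young and 969, 1005 and 898 CPM in young repopulated libraries, all 3 of which exceeded every young library. It had 619, 727, 656, 719.8 and 707 CPM in old libraries and 789.9, 794, 860.5, 1045, 789.5, 807, 807 and 636 CPM in old repopulated ones, so 7 of 8 old repopulated libraries exceeded the highest old one. The log2 fold change was 0.27 ± 0.12 in young repopulated against young (edgeR adjusted p = 0.292), 0.25 ± 0.10 in old repopulated against old (edgeR adjusted p = 0.349) and -0.21 ± 0.10 in old against young (edgeR adjusted p = 0.339). Within numbers 12 to 24, where young libraries had a higher mean than in 1 to 11, the first of these was 0.17 ± 0.09 (edgeR adjusted p = 0.271). None of these passed by edgeR, and the difference between the repopulation effects was -0.02 ± 0.16 (edgeR adjusted p = 0.995). By voom, old against young passed, at -0.27 (adjusted p = 0.0223). Within numbers 12 to 24, old libraries (694 ± 33.9 CPM, n = 3) were below young ones (867 ± 18, n = 4) by 0.31 ± 0.09 on the log2 scale (edgeR adjusted p = 0.0398). Within numbers 1 to 11 that difference was -0.05 ± 0.18 (edgeR adjusted p = 1).

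Hcst, the PI3-kinase adaptor best known as the partner of NKG2D, was low. Its level ran from 3.64 to 8.66 CPM (median 5.37) in young libraries, was 9.31, 6.62 and 7.28 CPM in young repopulated and 6.28, 5.53, 5.83, 6.23 and 4.34 CPM in old ones, and ran from 4.14 to 11.6 CPM (median 6.67) in old repopulated ones. The groups overlapped in every comparison, and the largest fold change was 0.43 ± 0.28 in young repopulated against young (edgeR adjusted p = 0.512). That difference passed by voom, at 0.57 (adjusted p = 0.0306). Within numbers 12 to 24 old repopulated libraries (4.36 ± 0.346 CPM, n = 3) lay below all 3 young repopulated ones (7.74 ± 1.4, n = 3), by 0.85 ± 0.18 on the log2 scale (edgeR adjusted p = 0.00397).

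The kinase Syk and the phospholipase Plcg2 act after the adaptor. Syk had 216 to 281 CPM (median 232) in young, 257 to 270 CPM in young repopulated, 220.3 to 369 CPM in old and 228 to 342 CPM (median 275) in old repopulated libraries. The highest value was that of old replicate 3 and the next that of old repopulated replicate 6. Syk differed by 0.20 ± 0.10 in old repopulated against young (edgeR adjusted p = 0.18) and by 0.37 ± 0.11 within numbers 12 to 24 (edgeR adjusted p = 0.02). Over all libraries that difference passed by voom, at 0.24 (adjusted p = 0.0119). In old against young Syk differed by 0.21 ± 0.11 (edgeR adjusted p = 0.391), or 0.08 without old replicate 3.

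Plcg2 stayed between 244 and 310.2 CPM in all 23 libraries. Its group means were 276 ± 16.8 CPM in young (n = 7), 293 ± 16.3 in young repopulated (n = 3), 263 ± 14.3 in old (n = 5) and 279 ± 12.1 in old repopulated (n = 8). Its log2 fold changes lay between -0.07 and 0.09 in the 5 comparisons of groups, each with an SE of 0.05 to 0.07, and the smallest edgeR adjusted p was 0.624. By voom Plcg2 passed in young repopulated against young, at 0.13 (adjusted p = 0.049).

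Inpp5d, the lipid phosphatase that dampens the route, was below the young range in several old and old repopulated libraries. It had 949, 910, 841, 1013, 1014, 956 and 1015 CPM in young, 944, 977 and 1086 CPM in young repopulated, 943, 796, 808, 872 and 823 CPM in old and 1074, 880.1, 909, 825, 755, 626, 724 and 680.3 CPM in old repopulated replicates. Of the 5 old libraries, 3 lay below the lowest young one. Of the 8 old repopulated libraries, 5 lay below the lowest young one and 7 below the lowest young repopulated one. The log2 fold change against young was -0.24 ± 0.09 and missed the threshold (edgeR adjusted p = 0.0846). It passed without old repopulated replicate 1, at -0.29 (edgeR adjusted p = 0.0135), with the run of library numbers as a term, at -0.27 (edgeR adjusted p = 0.0361), by DESeq2, at -0.25 (adjusted p = 0.0437), and by voom, at -0.38 (adjusted p = 0.000199). Against young repopulated it was -0.31 ± 0.12 (edgeR adjusted p = 0.401), and passed by voom, at -0.42 (adjusted p = 0.00557). Within numbers 12 to 24, Inpp5d fell by 0.55 ± 0.08 against young (edgeR adjusted p = 0.00028) and by 0.30 ± 0.09 against old (edgeR adjusted p = 0.0378). Within numbers 1 to 11 it differed from young by -0.01 ± 0.14 (edgeR adjusted p = 0.986), and the difference between the runs was -0.54 ± 0.15 (edgeR adjusted p = 0.0613). Old against young gave -0.17 ± 0.11 over all libraries (edgeR adjusted p = 0.48), and passed by voom, at -0.24 (adjusted p = 0.0301). Within numbers 12 to 24 old against young gave -0.25 ± 0.08 (edgeR adjusted p = 0.0517). Old repopulated against old gave -0.07 ± 0.10 over all libraries (edgeR adjusted p = 0.914).

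The receptors Trem1 and Trem3 rose in old repopulated against young microglia. Trem1, which amplifies inflammatory responses of myeloid cells, had 8.22, 16.3, 27.1, 12.1, 17.3, 21.9 and 19.5 CPM in young and 18.1, 31.5 and 18.7 CPM in young repopulated libraries. It had 19.5, 51.6, 116, 28.7 and 64.5 CPM in old libraries and 12.5, 62.5, 40.8, 22.1, 94.8, 173, 72.3 and 119.9 CPM in old repopulated ones. Of the libraries, 4 of 5 old and 6 of 8 old repopulated lay above the highest young one. Trem1 was 4.28-fold higher in old repopulated than in young (log2 fold change 2.10 ± 0.46, edgeR adjusted p = 0.00455), and passed in each of 23 fits that left out 1 library. In old against young it was 3.21-fold higher (1.68 ± 0.49) and just missed the threshold (edgeR adjusted p = 0.0634). That p crossed the threshold without old replicate 1 (0.0246), old replicate 4 (0.0496), old repopulated replicate 1 (0.0253), 4 (0.0471) or 6 (0.0438), and was highest, at 0.365, without old replicate 3. Trem1 also passed in old against young by DESeq2 (adjusted p = 0.0176), by voom (0.0106) and by edgeR with only these groups in the fit (0.0286). Old repopulated and old differed by 0.41 ± 0.48 (edgeR adjusted p = 0.867), and young repopulated and young by 0.38 ± 0.57 (edgeR adjusted p = 0.826). Against young repopulated, old repopulated differed by 1.72 ± 0.63 (edgeR adjusted p = 0.387). That difference passed by voom, at 1.81 (adjusted p = 0.00986), and within numbers 12 to 24, at 2.40 ± 0.45 (edgeR adjusted p = 0.0021).

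Trem3, the neighbour of Trem1 and likewise a partner of TYROBP, was scarce in young libraries, with 0.667, 0.305, 0, 0.0682, 0.299, 0.528 and 0.438 CPM, or 0 to 32 reads each. Young repopulated libraries had 0.256, 0.6 and 0.53 CPM. Old libraries had 0.642, 1.4, 5.35, 1.42 and 3.65 CPM, and old repopulated ones 0.592, 2.54, 1.01, 0.544, 1.7, 5.49, 3.19 and 3.99 CPM. The highest young value exceeded old replicate 1 and old repopulated replicates 1 and 4 and lay below all other old and old repopulated libraries. Trem3 rose by 2.91 ± 0.72 on the log2 scale in old against young (edgeR adjusted p = 0.0287) and by 2.84 ± 0.67 in old repopulated against young (edgeR adjusted p = 0.00747). The second call held in 23 of 23 fits that left out 1 library. The first was lost without young replicate 2 (0.054), 4 (0.0623), 5 (0.058) or 7 (0.054), old replicate 3 (0.161) or old replicate 5 (0.0818), and with only these groups in the fit (edgeR adjusted p = 0.0508). Young repopulated and young differed by 0.48 ± 0.83 (edgeR adjusted p = 0.852). Against young repopulated, old repopulated differed by 2.36 ± 0.93 (edgeR adjusted p = 0.401). That difference passed by voom, at 2.36 (adjusted p = 0.0385), and within numbers 12 to 24, at 3.16 ± 0.62 (edgeR adjusted p = 0.00255).

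Both runs of library numbers gave positive differences for these receptors, and only the higher numbers passed the test. Within numbers 12 to 24, Trem1 rose by 1.98 ± 0.41 in old and 2.79 ± 0.41 in old repopulated against young (edgeR adjusted p = 0.00644 and 0.000306), and Trem3 by 3.37 ± 0.57 and 3.66 ± 0.57 (edgeR adjusted p = 0.00218 and 0.000414). Within numbers 1 to 11, the old repopulated difference was 1.43 ± 0.63 for Trem1 (edgeR adjusted p = 0.44) and 1.98 ± 1.13 for Trem3 (edgeR adjusted p = 0.536), and in that run 0.0107% of all genes passed, as did 0.00533% in old against young. The difference between the runs was 1.35 ± 0.78 for Trem1 (edgeR adjusted p = 0.328) and 1.69 ± 1.13 for Trem3 (edgeR adjusted p = 0.408).

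Monocyte markers were also high in the libraries with the most Trem1 and Trem3. Of 9 monocyte markers, 6 rose in old and 7 in old repopulated against young, and 5 of 10 neutrophil markers rose in each. In these comparisons 2.83% and 15.2% of all genes passed. In old repopulated against old 0 markers of either list passed, against 0.278% of all genes. The neutrophil sum had a median of 535 CPM in young, 536 in old and 479 in old repopulated libraries. The library with the highest monocyte sum, old repopulated replicate 6 at 3738 CPM, had the highest Trem1 (173 CPM) and the highest Trem3 (5.49 CPM). Old replicate 3, next with 2784 CPM, had 116 and 5.35 CPM of these receptors and 421 CPM of Trem2. The lowest monocyte sum, 49.5 CPM in young replicate 1, came with the lowest Trem1, 8.22 CPM. Young replicate 3, the young library with 362 CPM of monocyte markers, had the highest young Trem1 (27.1 CPM) and no Trem3 read. Young repopulated libraries had a monocyte sum of 203 to 474 CPM, above every young library but replicate 3, though 0 of 9 markers passed. Their ranges of Trem1 (18.1 to 31.5 CPM) and Trem3 (0.256 to 0.6 CPM) overlapped those of young libraries. Chil3 alone held 26.3% of the monocyte sum in young, 34.8% in old and 40.6% in old repopulated libraries. In the neutrophil list Csf3r alone held 92.8% of the sum in young and 71.9% in old repopulated libraries, and Ly6g was at 0 in 3 young, 1 young repopulated and 2 old repopulated libraries. The part of monocyte or neutrophil RNA in the rise of Trem1 and Trem3 was not tested.

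**Figure D4:**
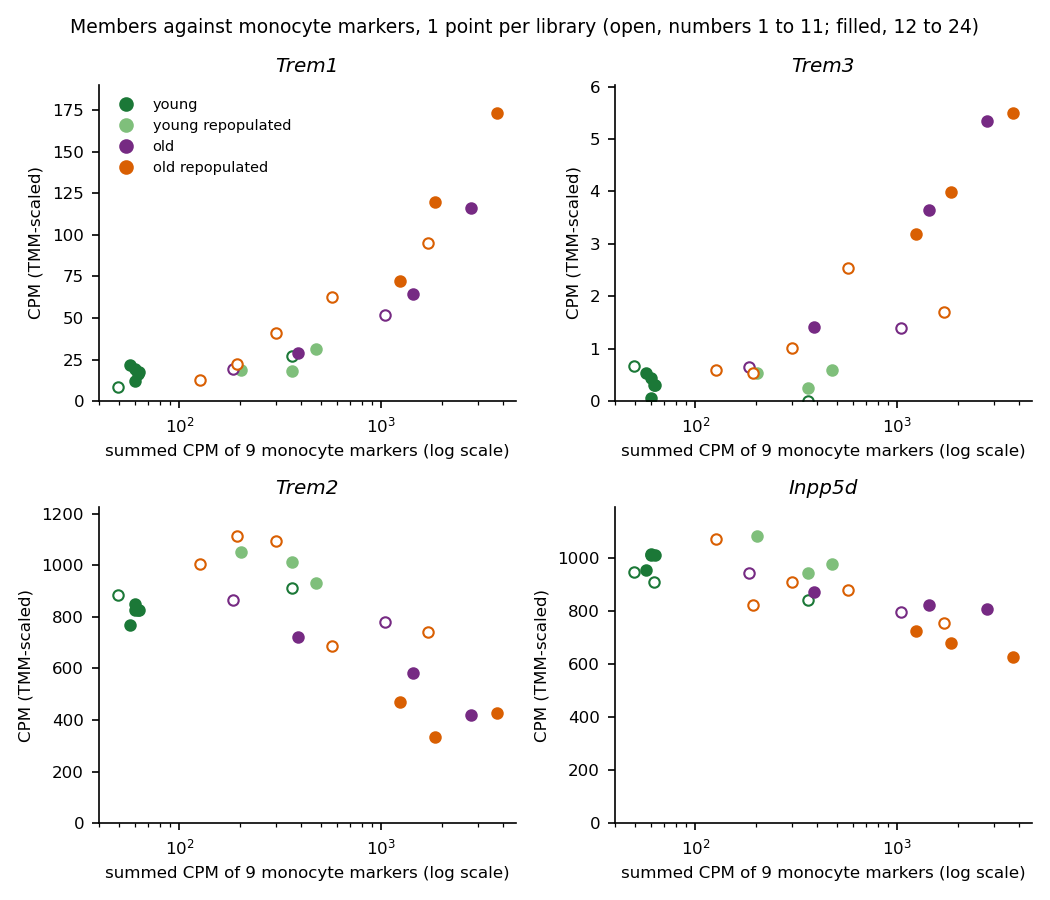
Level of Trem1, Trem3, Trem2 and Inpp5d (y axes, CPM) against the summed level of 9 monocyte markers (x axis, CPM, log scale), 1 point per library, coloured by group, open for library numbers 1 to 11 and filled for 12 to 24. Old repopulated replicate 6, at 3738 on the x axis, has the highest Trem1 and Trem3.

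Treml2, the TREM-like receptor, went the other way from Trem1 in old repopulated mice. It had 68.7, 81.2, 90.8, 68.7, 66.4, 58.9 and 66.6 CPM in young, 54.6, 61.6 and 69.1 CPM in young repopulated, 76.2, 63.2, 86.7, 73.1 and 69.0 CPM in old and 61.1, 34.4, 62.2, 72.2, 59.2, 50.7, 48.1 and 37.4 CPM in old repopulated replicates. Of the 8 old repopulated libraries, 7 lay below the lowest old one and 4 below the lowest young one. Treml2 fell by 0.43 ± 0.13 on the log2 scale in old repopulated against young (edgeR adjusted p = 0.0324). The call was lost without young replicate 2 (0.0776), 3 (0.0677) or 5 (0.0501), or old repopulated replicate 2 (0.0534), 6 (0.058), 7 (0.0699) or 8 (0.0668), and with only these groups in the fit (-0.41, edgeR adjusted p = 0.0682). Against old the difference was of like size, -0.47 ± 0.15, and did not pass (edgeR adjusted p = 0.175). It passed by voom, at -0.49 (adjusted p = 0.0441), and within numbers 12 to 24, at -0.75 ± 0.13 (edgeR adjusted p = 0.00557). Within those numbers the repopulation effect also differed between old and young mice by -0.70 ± 0.17 (edgeR adjusted p = 0.0301). The sum of 5 B cell markers, of which Ighm held 91.4% or more in every group, was 159.6 to 224 CPM in young and 25.9 to 187 CPM in old repopulated libraries. The part of B cell RNA in the Treml2 values was not tested.

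Within library numbers 12 to 24 alone, counts of called members followed larger backgrounds. Members called by edgeR were 3 of 9 in old against young (15.7% of all genes), 2 in old repopulated against old (12.7%), 6 in old repopulated against young (41.1%) and 7 in old repopulated against young repopulated (36.3%). In young repopulated against young none was called by edgeR, against 9.3% of all genes. There the Trem2 difference was 0.32 ± 0.16 (edgeR adjusted p = 0.246). The repopulation effect differed between old and young for 2 of 9 members, Hcst at -0.89 ± 0.25 (edgeR adjusted p = 0.0444) and Treml2, against 8.87% of all genes, and for Trem2 it differed by -0.81 ± 0.24 (edgeR adjusted p = 0.0511).

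The rest of the pathway was read through 10 lists holding 99 genes besides the 9, of which 97 were tested. The lists were written with earlier results of these data known. Their shares of called genes, here and below, are therefore descriptions and no test of an excess over all genes. In old against young 16 rose and 1 fell, 17.5% of the 97 against 2.83% of all genes, with a median log2 fold change of 0.06 against -0.01 for all genes. Of 11 receptors that use TYROBP or HCST, 5 were higher. Sirpb1b, a signal-regulatory receptor, went from 0.673 ± 0.499 CPM in young (n = 7) to 16 ± 13.7 CPM in old (n = 5), a rise of 4.57 ± 0.77 (edgeR adjusted p = 0.00368) that held in 23 of 23 fits that left out 1 library. Klrk1, the NKG2D receptor that pairs with HCST, rose by 5.10 ± 1.05 (edgeR adjusted p = 0.0103) from 0.208 ± 0.317 CPM, and Cd300lb by 1.81 ± 0.42 (edgeR adjusted p = 0.02). Treml4, a further TREM-like receptor, rose by 2.95 ± 0.66 (edgeR adjusted p = 0.0176). Higher as well were the ligand gene Lgals3 (2.52 ± 0.56, edgeR adjusted p = 0.0173), the exchange factor Vav3 (2.41 ± 0.66, edgeR adjusted p = 0.0487), the calcium channel Itpr1 (1.35 ± 0.34, edgeR adjusted p = 0.035) and the inhibitory receptor Cd300lf (1.55 ± 0.31, edgeR adjusted p = 0.00877). Lgals3 and Cd300lf passed in 22 of 23 fits that left out 1 library, Itpr1 in 16 and Vav3 in 8. Leaving out old replicate 3 cut the 17 calls to 2, and leaving out old replicate 5 cut them to 7. The share of all genes called in those fits is not given here, so a loss across all genes cannot be told from a loss in the pathway alone. Without old replicate 3 the calls of Klrk1 (0.0647), Cd300lb (0.109) and Treml4 (0.0806) were lost, and without old replicate 5 those of Cd300lb (0.0658) and Treml4 (0.0654). Summed T and NK cell markers were 0.225 to 1.11 CPM in young and 0.922 to 2.91 CPM in old libraries. In this comparison 6 of 9 monocyte, 5 of 10 neutrophil and 2 of 9 border-associated macrophage markers rose, and the highest monocyte sum of the old libraries, 2784 CPM, was that of old replicate 3. Of 12 microglial markers 1 fell and 0 rose, with a median log2 fold change of -0.60. The part of these cells' RNA in the pathway counts was not tested.

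Among 15 disease-associated microglia genes whose induction needs TREM2, 4 rose and 1 fell in old against young. Itgax, an integrin, rose by 1.36 ± 0.29 (edgeR adjusted p = 0.0135) and Gpnmb by 3.02 ± 0.69 (edgeR adjusted p = 0.0191). The growth factor Igf1 fell by 1.87 ± 0.38 (edgeR adjusted p = 0.00985), from 101 ± 49.6 CPM in young to 27.6 ± 12.5 CPM in old. Igf1 was 105 ± 42.5 CPM in old repopulated libraries and was 1 of 2 pathway genes higher there than in old (1.92 ± 0.38, edgeR adjusted p = 0.0305), where 2.06% of the 97 and 0.278% of all genes passed. That call was lost without old replicate 1 (0.0796), 3 (0.0784), 4 (0.126) or 5 (0.119), or old repopulated replicate 4 (0.0545), and 4 genes were called without old repopulated replicate 1. The other was Pilra, an inhibitory receptor, at 33.3 ± 4.37 CPM in old and 65.4 ± 15.4 CPM in old repopulated libraries (0.97 ± 0.15, edgeR adjusted p = 0.00789), which held in 23 of 23 such fits. In old against young the calls of Itgax (0.0786), Gpnmb (0.0668) and Igf1 (0.0525) were lost without old replicate 3, and those of Itgax (0.0596) and Gpnmb (0.0609) without old replicate 5.

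In young repopulated against young, 7 of 97 pathway genes rose and 1 fell, 8.25% against 1.34% of all genes, while Trem2 and Tyrobp did not pass. Axl, a receptor tyrosine kinase for dying cells, rose from 281 ± 35.8 to 944 ± 160.1 CPM (1.75 ± 0.19, edgeR adjusted p = 6.3e-05). Clec7a, the beta-glucan receptor dectin-1, rose by 1.34 ± 0.16 (edgeR adjusted p = 0.000112) and Pilra by 1.39 ± 0.17 (edgeR adjusted p = 0.000112). All 3 calls held in 23 of 23 fits that left out 1 library. Apoe, a lipoprotein that TREM2 binds, rose by 1.59 ± 0.35 (edgeR adjusted p = 0.0251), a call lost without young repopulated replicate 1 (0.155) or 2 (0.129). Ctsl, a lysosomal protease, fell by 1.15 ± 0.28 (edgeR adjusted p = 0.0402), with its call lost in 10 of 23 such fits. Gpnmb (3.32 ± 0.75, edgeR adjusted p = 0.0293) and Sirpb1b (3.38 ± 0.81, edgeR adjusted p = 0.0383) passed in 16 and 14 of them. Fewer genes were called without young repopulated replicate 1 (3) or 3 (4), and 5 without young replicate 2, 4, 5, 6 or 7 or young repopulated replicate 2. Here too the share of all genes called in those fits is not given. Of the marker lists, 1 of 9 border-associated macrophage, 1 of 10 neutrophil and 0 of 9 monocyte markers rose here. Border-associated macrophages line the vessels and coverings of the brain, and the sum of their markers was 1064 to 1699.8 CPM in young and 1437 to 1736 CPM in young repopulated libraries. Stab1 alone held 88.4% of that sum in young and 72.1% in young repopulated libraries, so the sum mostly follows Stab1. The median log2 fold change of the 9 markers was 1.17. The part of border-associated macrophages in the pathway genes was not tested.

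In old repopulated against young, 28 of 97 rose and 11 fell, 40.2% against 15.2% of all genes. Of 11 receptors 7 rose, Klrk1 most, by 4.36 ± 0.98 (edgeR adjusted p = 0.00546). Genes that act after SYK split: of 14 scaffolds and adaptors 3 rose and 3 fell, with Lat2, an adaptor, higher by 0.43 ± 0.09 (edgeR adjusted p = 0.00455) and the exchange factor Vav2 lower by 0.88 ± 0.17 (edgeR adjusted p = 0.00199) while its paralogue Vav3 rose by 2.69 ± 0.63 (edgeR adjusted p = 0.00656). Of 13 lipid and calcium genes 2 rose and 3 fell. Plcg1, the paralogue of Plcg2, went from 113 ± 12.3 CPM in young to 52.1 ± 25 CPM in old repopulated libraries (-1.11 ± 0.24, edgeR adjusted p = 0.00402), and the calcium channel gene Itpr3 rose by 0.71 ± 0.10 (edgeR adjusted p = 0.000115). Among inhibitors, 6 of 16 rose, the docking protein gene Dok2 most, by 2.36 ± 0.56 (edgeR adjusted p = 0.00719), and Sirpa, the receptor for CD47, fell by 0.42 ± 0.14 (edgeR adjusted p = 0.0419), a call that held in 7 of 23 fits that left out 1 library. Among ligands, Apob fell by 3.72 ± 0.73 (edgeR adjusted p = 0.00223) and Lgals3 rose by 2.66 ± 0.53 (edgeR adjusted p = 0.00259). Treml4 rose by 2.77 ± 0.62 (edgeR adjusted p = 0.00535), the Src-family kinase gene Fgr by 1.67 ± 0.39 (edgeR adjusted p = 0.00701) and Itpr1 by 1.11 ± 0.31 (edgeR adjusted p = 0.0196). Of the disease-associated genes 4 rose, Gpnmb most, by 2.94 ± 0.65 (edgeR adjusted p = 0.00502), and 3 fell, Ctsl most, by 1.09 ± 0.20 (edgeR adjusted p = 0.00135). Neither of the ITAM adaptors Fcer1g and Cd247 passed in any comparison. In this comparison 7 of 9 monocyte, 5 of 10 neutrophil and 5 of 9 border-associated macrophage markers rose, and the sum of the last was 669 to 2529 CPM in old repopulated libraries. Stab1 alone held 69.2% of that sum. Of 12 microglial markers 4 fell and 0 rose, with a median log2 fold change of -0.72. Of 4 B cell markers tested 2 fell and 0 rose. The part of these cells in the pathway genes was not tested.

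No pathway gene passed by edgeR between old repopulated and young repopulated, where 9 of 97 had an unadjusted p under 0.05, DESeq2 called 1 (0.491% of all genes) and voom 23 (17%). None passed by edgeR for the difference between the repopulation effects, where 14 had an unadjusted p under 0.05, DESeq2 called 2 (0.246% of all genes) and voom 6 (0.807%). Within library numbers 12 to 24 the counts higher and lower were 29 and 10 in old against young (15.7% of all genes passed), 35 and 25 in old repopulated against young (41.1%), and 19 and 25 in old repopulated against young repopulated (36.3%). Within numbers 1 to 11 edgeR called 0 of 97 in each of its comparisons. Of all genes, 0.00533% passed there in old against young and 0.0107% in old repopulated against young. The share in old repopulated against old is not given here.

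**Figure D5:**
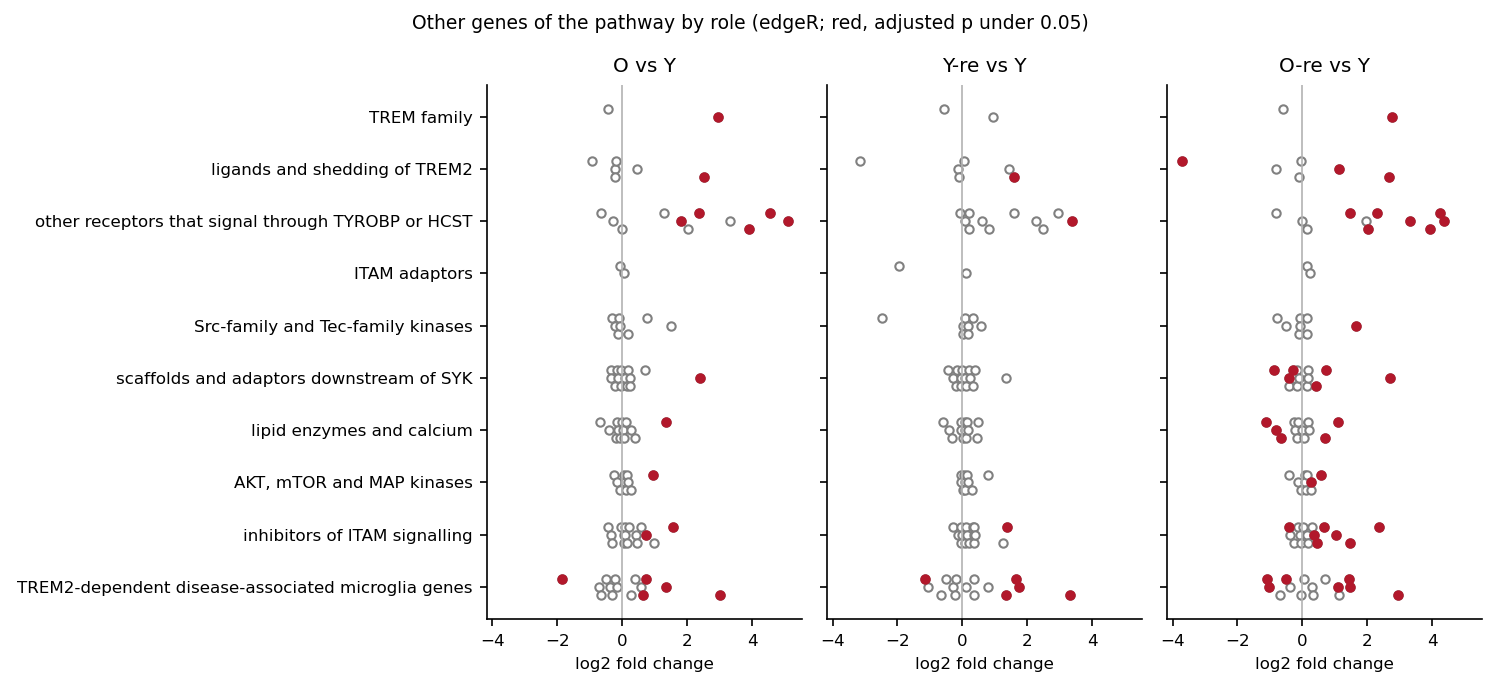
Log2 fold change (x axis) of each pathway gene besides the 9, by list (y axis), in old, young repopulated and old repopulated against young, with genes at edgeR adjusted p under 0.05 in red. The red points lie mostly right of 0 in old against young (16 of 17) and on both sides in old repopulated against young (28 and 11).

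Across the 23 libraries the genes whose log2 CPM followed a member most closely were sought among genes with a mean of at least 10 CPM (1 CPM for Hcst and Trem3). For Trem2 they were C1qb (Pearson r = 0.97), the complement component made by microglia, Itm2c (0.97) and the proton channel gene Hvcn1 (0.96). C1qb kept an r of 0.90 within numbers 1 to 11 and 0.97 within 12 to 24. For Trem1 they were Ifitm2, St3gal1 and Ezr, each at 0.97, and for Trem3 Adgre4, Bccip and Aida, each at 0.89. Syk was followed by Ube2q1 (0.92), Gpr35 (0.90) and Crybg1 (0.89), Inpp5d by Gpc2 (0.95), Unk (0.94) and Akap8l (0.93), and Treml2 by Nod1 (0.89), Agrn (0.88) and Parp9 (0.87). Tyrobp had no close follower beyond Glb1 (0.82), Tbc1d12 (0.79) and Nucb1 (0.79), Hcst had Use1 (0.83), and the highest r for Plcg2 was 0.66. Among the members, r between Trem2 and Inpp5d was 0.75 over all libraries, 0.35 within numbers 1 to 11 and 0.91 within 12 to 24. In the same order it was 0.77, 0.42 and 0.95 between Trem1 and Trem3, and 0.51, 0.49 and 0.82 between Trem2 and Tyrobp. It was -0.78, -0.48 and -0.92 between Trem2 and Trem1, and -0.85, -0.74 and -0.93 between Inpp5d and Trem1, so each was larger in size within the higher numbers. These are descriptions over libraries that share their groups, run of numbers and mixture of cells.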

How the data were processed

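Values were taken from 23 per-library tables of expected counts and TPM deposited by the authors. Per the submitters' processing notes these were made with FastQC 0.11.5, STAR and RSEM on GRCm38, and limma was used; annotation and strand setting are not given in the sources used here. Expected counts as deposited were not all whole (87.26% were, within 1e-06) and were rounded. Per the labels, single 50 nt reads came from stranded poly(A) libraries made from 2.4 to 147 ng of RNA. Genes passing filterByExpr were tested with edgeR 4.0.16 (R 4.3.3; TMM, quasi-likelihood, 1 coefficient per group, all 23 libraries in 1 fit) and adjusted by the Benjamini-Hochberg method over 18720 genes. CPM uses TMM library sizes and SE is the fold change over the root of F. The members, lists and comparisons were chosen with earlier results of these data known. All 9 members are named, and of each pathway list the called genes with the largest rise and fall, with up to 3 per list, except for items not reported here; likeness is Pearson r of log2 CPM with a prior count of 2, without predicted genes. The lists' Treml6 matched no tested gene and Lilrb4a had 2 identifiers, so both were left out. Alternatives were DESeq2 size factors, no filter, DESeq2 1.42.0, voom with sample weights (limma 3.58.1), only the groups compared, library numbers as a term or one run of them alone, and leaving out each library. The test of the difference between runs was added after the data were seen. Promoters came from a RefSeq table (windows for 6 of 9 members), and coordinates from GENCODE M21 (8 of 9 identifiers). The script was tested on simulated data. No label ties libraries to single animals, so p-values measure the spread between these libraries only. Depth behind a value ran from 15870 to 61420 reads for Trem2 and from 0 to 242 reads for Trem3, whose counting error is therefore large.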

Additional observations from a re-analysis of the deposited data

Results flagged for a closer look

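Plcg2 had 306 CPM in old repopulated replicate 1, apart from the other 7 libraries of its group, of which the nearest had 281 and the lowest 264 CPM. The gap is 0.585 of the group's range, above the critical value of 0.526 for 8 libraries. Of 27 sets of libraries tested in this way this was the one that passed, and chance passes about 1 in 20.

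The Trem2 difference between old repopulated and young was not the same in the 2 runs of library numbers. It was -0.99 on the log2 scale within numbers 12 to 24 and 0.09 within 1 to 11, and the tested difference between them was -1.08 ± 0.24 (edgeR adjusted p = 0.0391). The test was added after the data were seen. Trem2 did not pass it in old repopulated against old (-0.66 ± 0.27, edgeR adjusted p = 0.672) or in old against young (-0.42 ± 0.27, edgeR adjusted p = 0.65). Each of the 3 old repopulated libraries with higher numbers had less Trem2 (333 to 471 CPM) than each of the 5 with lower numbers (686 to 1115 CPM).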

How the results depend on the processing

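Over the settings other than leaving out a library, 329 of 396 values of the members' fold changes kept their direction and their side of the threshold, 26 changed direction, and 1182 of 1242 kept both when 1 library was left out. Counts follow in the order old against young, old repopulated against old, young repopulated against young, old repopulated against young, then against young repopulated, and are given where they moved by over 1.5 times. Members called by edgeR within library numbers 12 to 24 were 3, 2, 6 (old repopulated against young), 7 and, for the difference between repopulation effects, 2, and pathway genes 39, 20, 19, 60, 44 and 18. Within numbers 1 to 11 members were 0 and 0 in old and old repopulated against young, and pathway genes 0, 0 and 0. Of all genes, 0.00533% and 0.0107% passed there in old and old repopulated against young. By voom members were 4, 1, 2, 6 and 4, and pathway genes 38, 8, 27, 61, 23 and 6. By DESeq2 members were 2 in old against young, and pathway genes 5 in old repopulated against old, 13 in young repopulated against young, 1 against young repopulated and 2 for the difference. With only the groups compared, pathway genes were 0 in old repopulated against old and 22 in young repopulated against young. With library numbers as a term, members were 2 and pathway genes 4 in old repopulated against young repopulated. Leaving out 1 library gave 0 to 2 members in old and 2 to 4 in old repopulated against young, and pathway genes 2 to 23 in old against young, 1 to 4 in old repopulated against old, 3 to 12 in young repopulated against young and 28 to 52 in old repopulated against young. Shares of all genes are not given for these fits, for only the groups compared or for library numbers as a term. Such counts may follow a change across all genes, which was not tested.

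Directions that turned were, on the log2 scale and in old against young, Syk -0.03 and Treml2 -0.21 within numbers 1 to 11 and Hcst 0.02 by voom and 0.04 within 12 to 24. In old repopulated against old they were Trem2 -0.16 by voom, -0.08 with library numbers as a term and -0.49 within 12 to 24; Syk 0.05, 0.03, 0.11 (within 1 to 11) and 0.01; Trem3 0.13, 0.17, 0.33 (within 1 to 11) and 0.29; Inpp5d 0.04 within 1 to 11 and Hcst -0.33 within 12 to 24. In young repopulated against young they were Trem1 -0.02 and Trem3 -0.10 with library numbers as a term. In old repopulated against young they were Trem2 0.09 within 1 to 11, Tyrobp -0.08 by voom and -0.20 within 12 to 24 and Hcst -0.29 within 12 to 24. For the difference between repopulation effects they were Tyrobp 0.04 by voom and 0.01, and Trem3 0.28, with library numbers as a term. The cause was not tested, and none of these values passed the threshold. Leaving out 1 library turned the sign within these ranges: Hcst -0.09 to 0.10 and Treml2 -0.03 to 0.11 in old against young; Trem2 -0.01 to 0.23, Syk -0.08 to 0.12 and Trem3 -0.36 to 0.42 in old repopulated against old; Tyrobp -0.02 to 0.09 in old repopulated against young; Hcst -0.30 to 0.00 against young repopulated. For the difference between effects they were Tyrobp -0.08 to 0.03, Plcg2 -0.07 to 0.04, Hcst -0.27 to 0.03 and Trem1 -0.27 to 0.48.

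No paired analysis was possible because no label ties libraries of different groups to each other. The submitters' library numbers run once through all groups, and the replicate numbers used here restart in each group. Young repopulated libraries occur only at numbers 22 to 24, so that group has no value within numbers 1 to 11.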
